A study of Mus musculus with 4 samples.

Results

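Stimulated alveolar macrophages are here the resident macrophages of the lung air spaces that carried RNA of early inflammatory genes, in a droplet single-cell RNA survey of mouse lung. A cell was a member when at least 4 of 8 alveolar macrophage genes (Ear1, Fabp1, Krt79, Plet1, Siglecf, Atp6v0d2, Cidec, Marco) and at least 2 of 4 stimulus genes (Ereg, Inhba, Il1a, Cxcl3) had a UMI, a uniquely tagged RNA molecule, and when Cd3e, Cd79a and Cdh5 had none. Of 53463 kept cells with at least 300 genes and at most 20% mitochondrial UMIs, 2823 were members, and 2705 others met the alveolar macrophage part with 0 or 1 stimulus genes. Whole lungs came from Galt gene-edited (GAL) animals and from wild-type (WT) controls, with 2 libraries a group. GAL replicate 1 contributed 403 members and GAL replicate 2 883, while the first WT library contributed 939 and the other 598, and series of 4 values below keep that order. Members were thus chosen by measured UMIs of these genes. Replicate numbers follow the order of deposition. The labels name no age, sex, strain or treatment for either group, and do not say what the edit changes or how animals map to libraries, so p-values measure the spread between these libraries, which may be technical.

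Alveolar macrophages clear surfactant and inhaled particles, and depend on GM-CSF signalling and the transcription factor PPAR gamma. When they sense microbial products or injury, NF-kB and AP-1 switch on early genes within hours. The products of the stimulus genes act on other cells: CXCL3, like CXCL1 and CXCL2, draws neutrophils through the receptor CXCR2, interleukin 1 alpha is an alarm cytokine, epiregulin is a ligand of the EGF receptor that acts on epithelium, and Inhba encodes the subunit that forms activin A, a cytokine of the TGF-beta family.

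Several of these genes are neighbours. On mouse chromosome 5 (GRCm38), Cxcl3 (90786103 to 90789600), Cxcl1 (90891241 to 90893115), Cxcl2 (90903871 to 90905938), Ereg (91074622 to 91093646) and Areg (91139599 to 91148432), all on the plus strand, lie within 362 kb. Il1a (129299610 to 129309972) and Il1b (129364570 to 129371139) lie on the minus strand of chromosome 2, within 71.5 kb, and Inhba (16011851 to 16031621) is on chromosome 13. The chemokine promoters are printed because Cxcl3 chose the members while its neighbours Cxcl1 and Cxcl2 did not, and the levels of all 3 are described below. RefSeq's sequence (GRCm38.p6) from 120 to 31 bases before each RefSeq start site follows, 5′ to 3′ on the plus strand, with the letters GGAATTTCC, a form of the NF-kB motif, in capitals. RefSeq's starts (90786101 for Cxcl3, 90891245 for Cxcl1 and 90903899 for Cxcl2) differ from the gene starts above, which are those of GENCODE.
Cxcl3, chr5:90785981-90786070: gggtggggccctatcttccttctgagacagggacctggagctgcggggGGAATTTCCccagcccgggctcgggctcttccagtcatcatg
Cxcl1, chr5:90891125-90891214: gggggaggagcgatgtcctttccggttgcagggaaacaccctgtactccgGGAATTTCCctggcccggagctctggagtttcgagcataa
Cxcl2, chr5:90903779-90903868: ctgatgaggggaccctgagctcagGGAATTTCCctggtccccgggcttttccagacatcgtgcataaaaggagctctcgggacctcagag
Each of these promoters held the letters once in the 250 bases before its RefSeq start, beginning 72, 70 and 96 bases before it. Of 32851 promoters of the table, 94 (0.286%) held GGAATTTCC on either strand in those 250 bases. The promoters of Il1a, Inhba, Areg, Il1b and Tnf held no such letters, and Ereg had no entry in the table. TGAGTCA, a form of the AP-1 motif found in 4.46% of promoters, occurred in the Il1a window, and TGACGTCA, a form of the CREB motif found in 1.55%, in the Areg window. A match of letters is a description and not a measured binding site.

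Kept cells numbered 11887 to 15416 per library, and the deposited libraries held 56218178 to 62406681 UMIs. Members had a median of 10380 to 11757 UMIs per library and other alveolar macrophages 8969 to 9798. GAL replicate 2 stood apart in how many of its alveolar macrophages were stimulated, so the share and the calls are given with and without it. WT replicate 2 carried the most erythroid RNA (6 markers sum to 18.0, 22.2, 56.2 and 1021 CPM, the UMIs of a gene scaled to a common library total, in members), and GAL replicate 1 the most alveolar type 2 and fibroblast RNA (sums of 806, 29.2, 302 and 89.1 CPM and 140.3, 59.2, 46.9 and 48.0 CPM). Libraries shared 107 to 149 cell barcodes in pairs. Of the members, 251 were among the cells with the highest doublet scores, and 515 further cells were refused by Cd3e, Cd79a or Cdh5 alone.

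Plet1 and Siglecf are genes of the rule, so their values describe the choice of the cells. Plet1, a surface protein of these macrophages, had a UMI in 99.8%, 99.4%, 99.6% and 99.7% of members and in 3.39% to 6.80% of B cells, which should lack it. Siglecf, the sialic acid receptor used to sort mouse alveolar macrophages, had a UMI in 64.8%, 56.9%, 55.8% and 65.9% of members, at a level of 110.0, 79.4, 81.1 and 113 CPM. Of alveolar macrophage genes outside the rule, Car4, a carbonic anhydrase, stood at 489, 835, 881 and 464 CPM in members and 14.0 to 25.0 CPM in B cells, and Fabp4, a fatty acid binding protein, at 432, 700.4, 327 and 356 and 6.46 to 22.1 CPM. Median depths were 10380 to 11757 UMIs in members and 1896 to 2372 in B cells, and the share in B cells is one of droplets with free RNA as well as of cells. The defining markers of T cells, B cells and conventional dendritic cells summed to 10.5 to 22.9, 11.5 to 18.9 and 15.5 to 24.7 CPM in members, 6 markers each with none at 0. Interstitial macrophage markers (9 genes, led by Apoe) summed to 184 to 265 CPM, of which only 2 reached 20 CPM. Fn1, listed with classical monocytes and also made by alveolar macrophages, held most of that list's 538 to 1110.2 CPM. 

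Values of the stimulus genes describe how the cells were chosen and carry no test. In members, Cxcl3 stood at 342, 768, 423 and 423 CPM, Ereg at 236, 459, 206 and 266 CPM and Inhba at 181, 763, 491 and 201 CPM. Il1a was the most even of the 4, at 329, 335, 328 and 390.0 CPM, and had a UMI in 92.1%, 88.7%, 89.7% and 92.6% of members. In other alveolar macrophages, held to at most 1 of the 4 genes, Il1a still stood at 92.3, 95.6, 92.6 and 106 CPM. At the other edge of the rule, 126 cells (7, 59, 43 and 17 by library) had 3 of the 8 alveolar macrophage genes and met the rest. Their median depth was 2720 to 5341 UMIs, against 4948 to 9394.5 for members with exactly 4. Plet1 stood at 1529.5, 1752, 1275 and 1403 CPM in the 126 cells, near the 1340.5, 1661, 1376 and 1317 CPM in those members. Siglecf stood at 0, 19.2, 18.2 and 27.2 against 11.4, 34.4, 32.3 and 16.5 CPM. Both genes are among the 8, so these levels also describe the choice of the cells.

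Among alveolar macrophages, the stimulated share was 38.9%, 81.8%, 51.2% and 37.8%. The 95% Wilson intervals, which cover counting error only, ran from 36.0% to 41.9%, from 79.4% to 84.0%, from 48.9% to 53.5% and from 35.5% to 40.2%. GAL replicate 2 was highest and WT replicate 1 next, while GAL replicate 1 and WT replicate 2 overlapped. The groups overlapped, with means of 60.4% ± 30.3 in GAL and 44.5% ± 9.48 in WT (SD, n = 2 each, exact two-sided permutation p = 0.667, where 0.33 is the smallest p that 2 against 2 allows). Without GAL replicate 2 the difference of 15.9 percentage points became -5.59. All 4 stimulus genes had a UMI in 4.64%, 32.9%, 8.46% and 4.05% of alveolar macrophages, and none of the 4 in 24.4%, 4.73%, 18.8% and 26.8%. So the members of GAL replicate 2 were also of another mix, with 11.9%, 40.2%, 16.5% and 10.7% of members positive for all 4.

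Detection grows with depth, so each cell with at least 2000 UMIs was thinned to 2000 (127 of the alveolar macrophages fell below). The stimulated share became 14.0%, 50.7%, 22.2% and 13.8%, with GAL replicate 2 again highest (exact two-sided permutation p = 0.667). Thinning to 5000 UMIs gave 29.0%, 71.3%, 39.8% and 29.6%. Among B cells, 2 or more of the 4 genes had a UMI in 0.148% to 0.957% at full depth. After thinning to 2000 UMIs, B cells gave 1 of 738 cells (0.136%) in WT replicate 2 and 0 of 523, 525 and 233 in the others, where a limit of 3 counts allows shares of up to 0.574%, 0.571% and 1.29%. Stimulated cells made up 3.32%, 7.43%, 6.70% and 3.88% of all kept cells (exact two-sided permutation p = 1).

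**Figure D1:**
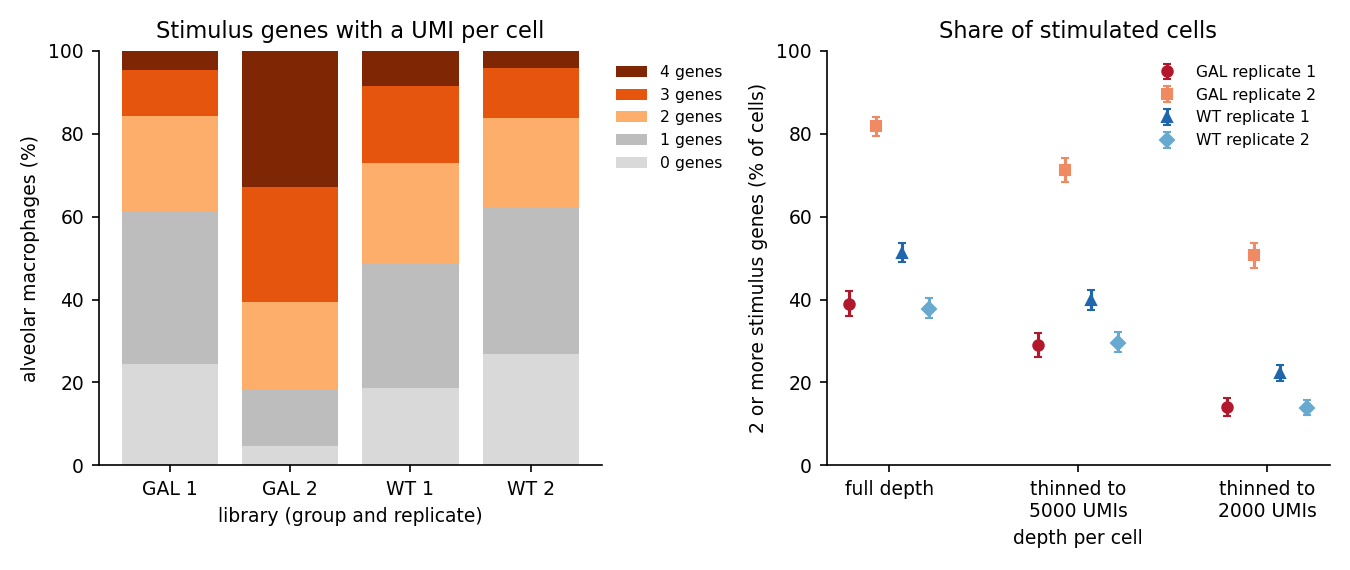
Left, alveolar macrophages of each library (bars, % of cells) by how many of Ereg, Inhba, Il1a and Cxcl3 had a UMI. Right, share of cells with 2 or more of them (points, with 95% Wilson intervals) at full depth and after thinning each cell to 5000 or 2000 UMIs, where GAL replicate 2 is highest at every depth, at 81.8%, 71.3% and 50.7%.

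The 4 stimulus genes did not always come together. Among members with exactly 2, the pairs with Il1a were the 3 most frequent in every library, in an order that differed between libraries. Inhba with Il1a marked 71, 71, 197 and 108 cells, Il1a with Cxcl3 77, 41, 88 and 96, and Ereg with Il1a 66, 57, 73 and 99. Inhba with Il1a led in all libraries but GAL replicate 1, where Il1a with Cxcl3 was ahead. Cells of these pairs differed in some other inflammatory genes, while further ones had no fixed order. Tnf, which encodes the cytokine TNF, stood at 575, 597, 223 and 425 CPM in cells with Inhba and Il1a and at 1126, 818, 509.6 and 1197 CPM in cells with Ereg and Il1a, higher with Ereg in every library. Cxcl2 showed the same order, at 8696, 10649, 5600.4 and 9535 CPM with Inhba and Il1a, 13045, 12669, 10503 and 13656 CPM with Ereg and Il1a and 14505, 13619, 11451 and 17101 CPM with Il1a and Cxcl3. Nfkbia, the NF-kB inhibitor that NF-kB itself induces, stood at 1420.5, 2058, 1291 and 1387 CPM with Inhba and Il1a against 2896, 2844, 2289 and 2724 CPM with Ereg and Il1a. Areg, another EGF receptor ligand beside Ereg on chromosome 5, stood at 199.9, 647, 299 and 267 CPM with Ereg and Il1a and 76.5, 250.5, 202 and 97.9 CPM with Il1a and Cxcl3. Il1b took both orders among the libraries. It stood at 138, 1092, 885 and 347 CPM with Inhba and Il1a and at 344, 787, 1038 and 328 CPM with Ereg and Il1a. Between these pairs, Ccl3, Ccl4 and Osm likewise had no order that held in all 4 libraries. The 3 pairs with Il1a held 41 to 197 cells per library, and the differences are described without a test.

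Several other inflammatory genes were higher with each further stimulus gene detected, on both sides of the threshold of 2. The cells were split by that number, so no test is given. Mean Cxcl2 over the 4 libraries was 4344, 6973, 10890.5, 15493 and 18335 CPM in alveolar macrophages with 0, 1, 2, 3 and 4 of the genes, and was higher at each step in all 4 libraries. Cxcl1 went from 189.7 ± 87.4 to 390.3 ± 171 CPM below the threshold and from 818 ± 235 to 1971 ± 263 CPM within it (mean ± SD, n = 4 libraries). Even alveolar macrophages with none of the 4 genes carried Cxcl2 at 4548, 5761, 2889.6 and 4176 CPM, while B cells had 201 to 554 CPM. Median depth also grew with the number, from a range over libraries of 8081 to 9672 UMIs in cells with 0 to a range of 11840.0 to 12495 in cells with 4.

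At full depth, Tnf, Il1b (interleukin 1 beta), Ccl3, Nfkbiz, Phlda1 and Slc7a11 were likewise higher at each step in every library. Others were less regular, with Areg higher at each step in 3 libraries, Ccl4 and Osm in 2, Egr1 in 1 and Hbegf in 0. Tnf went through 177, 334, 635, 1004 and 1277 CPM and Il1b through 224, 366, 592, 1122 and 1528 CPM. On counts thinned to 2000 UMIs, with the number of stimulus genes read again, Tnf went through 290.1, 649, 1112 and 1454 CPM in cells with 0 to 3 genes, and Cxcl1 through 369.7, 860.5, 1413 and 2118 CPM. Too few thinned cells kept all 4 genes in GAL replicate 1 (4 cells) and WT replicate 2 (10 cells) to read that step. With that step counted, thinned Tnf, Il1b, Cxcl1 and Cxcl2 were higher at each step in 4 libraries. Ccl3, Phlda1 and Slc7a11 were so in 3, Nfkbiz in 2 and Areg in 1. Txnip, an inhibitor of thioredoxin, went the other way, through 169, 136, 97.5, 60.7 and 49.9 CPM, and was lower at each step in every library.

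Of the genes that identify the cell type, Plet1 was higher at each step at full depth, from 1134 ± 72.7 to 2077 ± 271 CPM, and Cidec, a lipid droplet protein, lower at each step, from 245 ± 25.4 to 147 ± 26.3 CPM. On counts thinned to 2000 UMIs, Plet1 was higher at each step in 3 libraries. Thinned Cidec was lower at each step in 0 libraries, with 6 of 16 steps higher. Means of Ear1 went from 986 ± 206 to 663 ± 209.7 CPM, of Siglecf from 125 ± 4.53 to 90.1 ± 14.5 CPM and of Fabp1 from 363 ± 155 to 319 ± 212 CPM, while Marco, a scavenger receptor, went from 192 ± 77.7 to 359.9 ± 169.7 CPM. None of these had 1 direction at every step in all 4 libraries, nor did Krt79 (557 ± 22.3 to 518 ± 26.6 CPM) and Atp6v0d2 (689 ± 59.0 to 694 ± 119 CPM). Chil3, a chitinase-like protein that alveolar macrophages secrete and a gene picked here after its values were seen, moved little with the number of stimulus genes (14506, 14693, 15221, 15479 and 15874 CPM on average) and much between libraries.

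**Figure D2:**
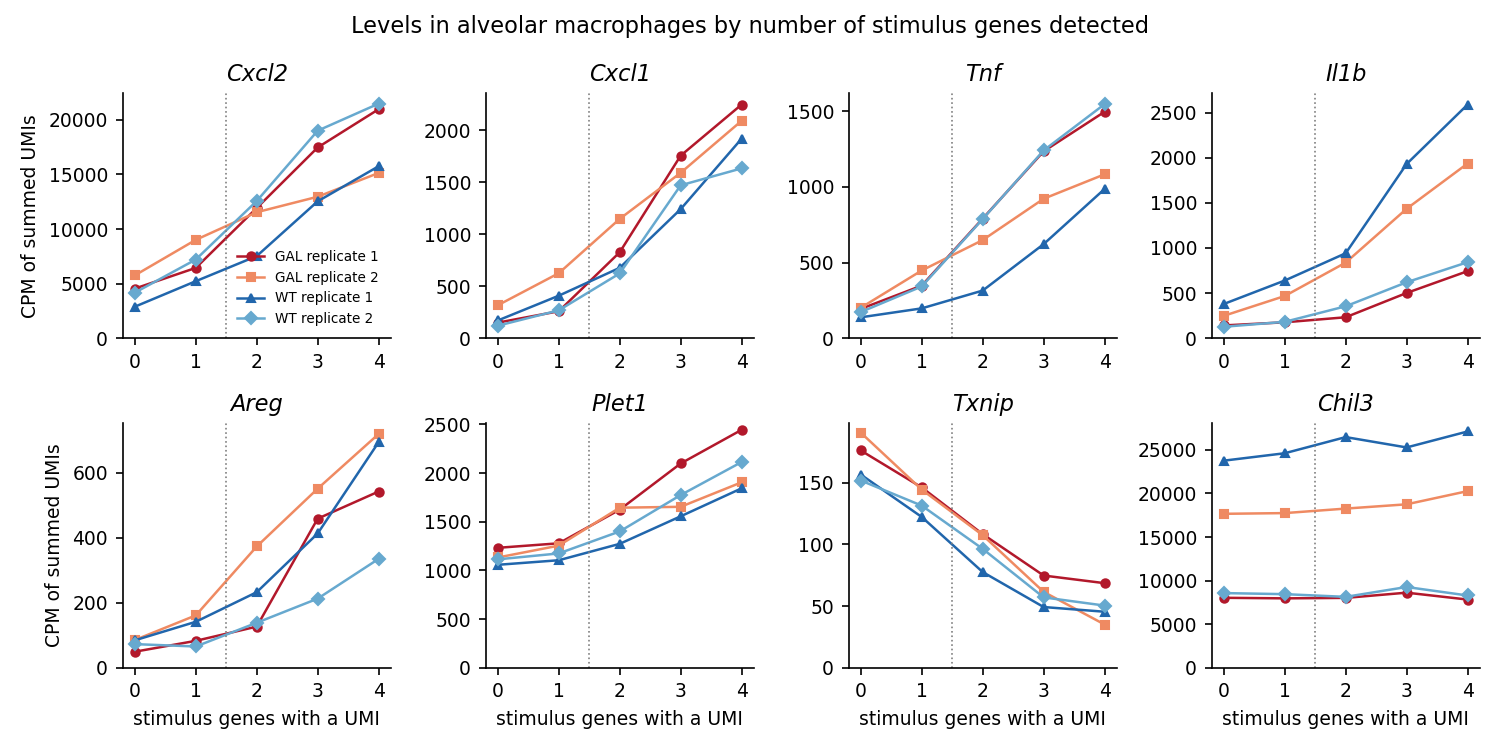
CPM of summed UMIs (y, from 0) in alveolar macrophages of each library (lines) with 0 to 4 of the stimulus genes detected (x), and a dotted line at the threshold of membership. At full depth, Cxcl2, Cxcl1, Tnf, Il1b and Plet1 climb in all 4 libraries, Areg in 3 of 4, Txnip falls in all 4, and Chil3 stays apart by library at each number.

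Stimulated and other alveolar macrophages of the same library were next set side by side, as log2 ratios of CPM with 5 CPM added to both (mean ± SD over 4 libraries). The rule cut the cells by this contrast, so the ratios describe the members and carry no test. Of 5547 genes outside the rule with at least 20 CPM, 486 (8.76%) were higher in stimulated cells of all 4 libraries and 1832 (33%) lower, and the median ratio was -0.06.

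Inflammatory cytokines and their inhibitors were higher in all 4 libraries for each of the 7 that reached 20 CPM of the 19 listed, with a median ratio of 1.21. Tnf was at 1015, 928, 546 and 1029.6 CPM in stimulated and 293, 385, 177 and 278 CPM in other alveolar macrophages, a ratio of 1.63 ± 0.27. Il1b was at 380.2, 1516, 1597 and 502 CPM in stimulated and 164, 412, 552 and 161 CPM in other alveolar macrophages, a ratio of 1.55 ± 0.28. No stimulated value of Tnf fell within the range of the other cells, while Il1b of other cells in WT replicate 1 exceeded that of stimulated cells in GAL replicate 1 and WT replicate 2. The mean of Il6, a cytokine of the acute phase response, was 106 against 38.4 CPM, log2 ratio 1.41 ± 0.12, and Il23a, a subunit of interleukin 23, averaged 22.8 against 6.60 CPM, log2 ratio 1.21 ± 0.34. Il1rn, the natural antagonist of the interleukin 1 receptor, averaged 524 against 227 CPM, log2 ratio 1.19 ± 0.07. Ptgs2, the inducible cyclooxygenase, had a ratio of 1.11 ± 0.24 and Acod1, which makes itaconate, of 0.55 ± 0.40.

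Chemokines were higher in all 4 libraries for 11 of 14 measured, with a median ratio of 0.87. Cxcl1 was at 1289, 1705, 1103 and 1026 CPM in stimulated and 221, 546, 328 and 212 CPM in other alveolar macrophages, a ratio of 2.03 ± 0.42 and the largest of the genes outside the rule. Cxcl2 was at 14769.6, 13581, 10826 and 15790.1 CPM in stimulated and 5772, 8183, 4437 and 6063 CPM in other alveolar macrophages, a ratio of 1.19 ± 0.31. Ligands of the monocyte receptor CCR2 behaved alike, with Ccl7 at 198 against 77.6 CPM, log2 ratio 1.31 ± 0.29, and Ccl2 at 355 against 193 CPM, log2 ratio 0.88 ± 0.18. For the chemokines Ccl3 and Ccl4, the ratios were 0.93 ± 0.10 and 1.05 ± 0.23. Cxcl16, Cxcl9 and Ccl5 were the exceptions, with ratios of 0.22 ± 0.28, -0.18 ± 1.17 and -0.73 ± 1.06 that took both signs among the libraries.

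Growth factors were mixed, with 5 of 8 higher in all 4 libraries. Areg was at 280.2, 584, 381 and 187 CPM in stimulated and 71.2, 142, 122 and 68.4 CPM in other alveolar macrophages, a ratio of 1.72 ± 0.28. Its neighbour Ereg, also a ligand of the EGF receptor, is a gene of the rule, so the level of Ereg describes the choice. Hbegf, another ligand of that receptor, had a ratio of 0.29 ± 0.38. Lif and Osm, cytokines of the interleukin 6 family, had ratios of 1.19 ± 0.48 and 0.55 ± 0.05, and Tgfb1 was lower in all 4 libraries at -0.15 ± 0.09. Of the activin pathway, 3 of 13 listed genes reached 20 CPM (Acvr1b, Smad2 and Smad4), with ratios from -0.06 to 0.03 and none on 1 side in all libraries.

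NF-kB subunits, inhibitors and targets were higher in all 4 libraries for 17 of 22 measured (median 0.47). Nfkbia averaged 2584 against 1192 CPM, log2 ratio 1.13 ± 0.21, and Nfkbiz, an atypical inhibitor that also helps induce secondary genes, averaged 409 against 174 CPM, log2 ratio 1.23 ± 0.19. The ratio of Tnfaip3, the deubiquitinase that limits NF-kB, was 0.98 ± 0.19, and that of the cystine transporter Slc7a11 was 1.67 ± 0.11. Immediate early genes split, with 14 of 22 higher and 5 lower in all 4 libraries (median 0.29). Egr1 led them at 639 against 278 CPM, log2 ratio 1.21 ± 0.20, followed by Egr2 at 0.69 ± 0.09. Among sensors, the C-type lectins Clec4e and Clec4d had ratios of 1.11 ± 0.23 and 0.68 ± 0.11, Cd14 0.67 ± 0.13 and Nlrp3, the sensor of an inflammasome, 0.63 ± 0.14.

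Cholesterol synthesis was the other list that stood together, with 12 of 13 measured genes higher in all 4 libraries and a median ratio of 0.67. Idi1, an isomerase of the pathway, averaged 82.7 against 37.5 CPM, log2 ratio 1.08 ± 0.42. Stard4, a sterol carrier, averaged 34.3 against 17.2 CPM, log2 ratio 0.83 ± 0.17. Mvd was the exception at 0.18 ± 0.19. Some genes of sterol export and of transport by lipoproteins were lower, as were 33% of all genes in all 4 libraries. They were not a list of their own and were put together after their values were seen. Abca1 averaged 47.2 against 76.6 CPM, log2 ratio -0.66 ± 0.24, Abcg1 683 against 958 CPM, log2 ratio -0.49 ± 0.08, Apoc1 25.8 against 50.9 CPM, log2 ratio -0.83 ± 0.45 and Pltp, the phospholipid transfer protein, 60.4 against 94.0 CPM, log2 ratio -0.61 ± 0.11. The lipid handling list was mixed, with a median ratio of -0.13. Of its 19 measured genes, 3 were higher and 8 lower in all 4 libraries, beside 8.76% and 33% of all genes. With membership and levels read from counts thinned to 2000 UMIs, the median of the cholesterol list was 0.70.

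Lower in stimulated cells were also Txnip, at 93.2, 60.6, 61.5 and 77.8 CPM in stimulated and 157, 156, 134 and 139 CPM in other alveolar macrophages, a ratio of -0.97 ± 0.26, and Pdk4, a kinase that shuts off pyruvate dehydrogenase, at 21.5 against 43.2 CPM, log2 ratio -0.90 ± 0.23. Tsc22d3, a target of the glucocorticoid receptor, averaged 80.4 against 123 CPM, log2 ratio -0.60 ± 0.19, and Scd1, a fatty acid desaturase, 17.1 against 28.7 CPM, log2 ratio -0.63 ± 0.20. No gene that was lower in all 4 libraries reached a mean ratio of -1, whereas 26 that were higher reached 1. The 20 listed alveolar macrophage genes outside the rule had a median of -0.01, with 7 higher and 6 lower in all 4 libraries, led by the carbonic anhydrase Car4 at 667 against 374 CPM, log2 ratio 0.81 ± 0.08.

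**Figure D3:**
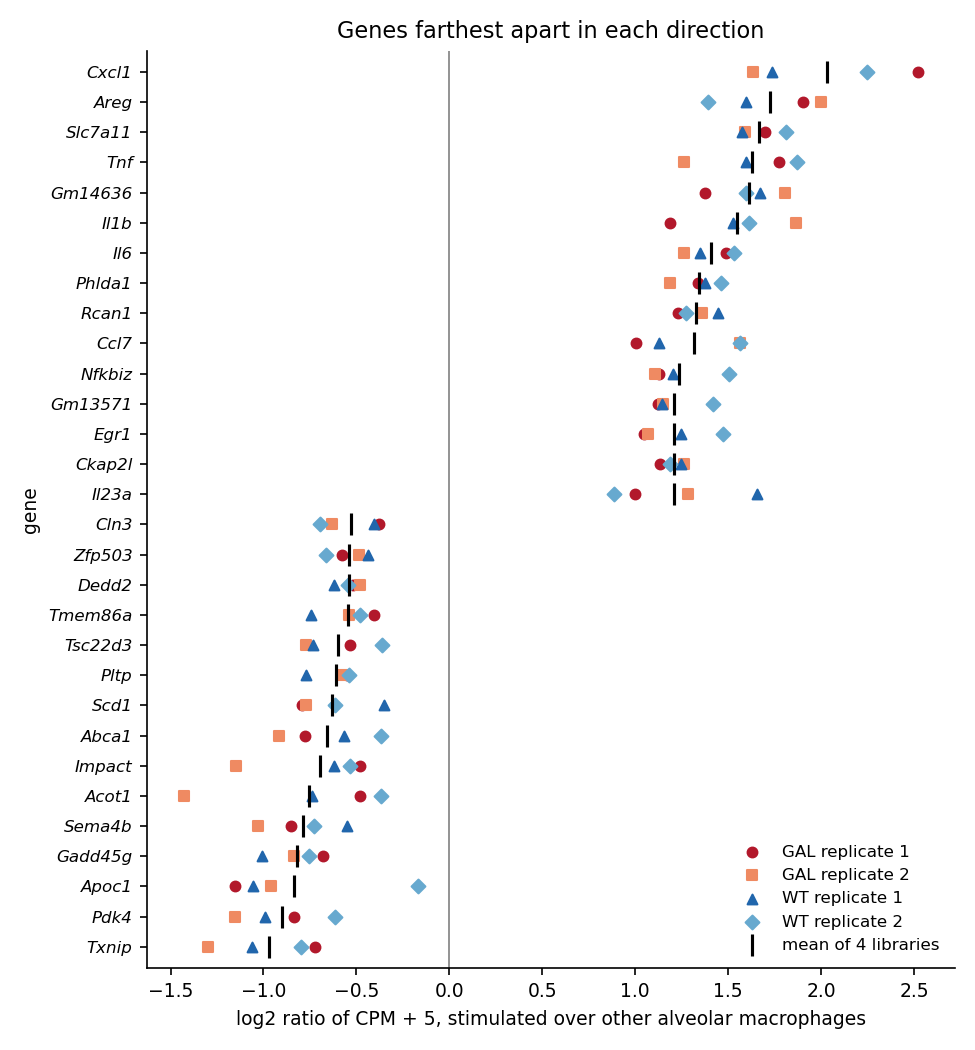
Log2 ratio of CPM + 5 in stimulated over other alveolar macrophages (x) for the 15 highest and 15 lowest genes outside the rule that lie on 1 side in all 4 libraries (y), with a point per library and a bar at the mean. Ratios reach from -0.97 for Txnip to 2.03 for Cxcl1.

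Outside alveolar macrophages, Ereg, Inhba and Cxcl3 followed different cells. Ereg was low in the other populations compared, at 0.755 to 5.43 CPM in interstitial macrophages (1807 cells) and 1.14 to 4.60 CPM in neutrophils (3227 cells). Inhba reached 3.20, 34.8, 38.8 and 3.02 CPM in interstitial macrophages and 25.1 to 49.2 CPM in neutrophils. Cxcl3 was shared with neutrophils, at 222, 104, 487 and 367 CPM, where WT replicate 1 was above its own stimulated alveolar macrophages. Of genes outside the rule, Cxcl2 in interstitial macrophages (11371, 9016, 5939 and 12015 CPM) lay near the members, and Il1b was far higher in neutrophils (5724 to 7924 CPM) than in members. The neutrophil sums also held airway epithelial markers at 62165, 14329.5, 366 and 13666 CPM. The part of RNA from other cells in the neutrophil and interstitial macrophage values was not tested.

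Between libraries, several genes of the members lay in an order that crossed the groups. Inhba was high in GAL replicate 2 and WT replicate 1 and low in the other libraries, as given above, both in members and in other alveolar macrophages (25.1, 85.8, 57.0 and 18.98 CPM). Il1b had that order in members (380.2, 1516, 1597 and 502 CPM), and so did Ccl17, a ligand of CCR4, at 76.8, 495, 1229.6 and 54.6 CPM. Mmp12, the macrophage elastase, stood at 7.41, 66.99, 198 and 9.31 CPM and Chil3 at 8172, 19298, 26135 and 8531 CPM. B cells of the same libraries had Ccl17 at 40.9, 125, 691 and 84.0 CPM and Chil3 at 95.3, 364, 1296 and 458 CPM. Their Il1b stood at 100.1, 235, 350.0 and 131 CPM. Inhba had a UMI in 0.297%, 2.39%, 1.44% and 0.526% of B cells, also higher in GAL replicate 2 and WT replicate 1. The part of such background in the levels of members and of other alveolar macrophages was not tested. Ccl2 had the reverse order, at 481, 239, 243 and 458 CPM in members. Il1a and Krt79 (523, 499, 546 and 515 CPM) were level in members of all 4 libraries. Inhba, Il1a and Krt79 are genes of the rule, so their values in members describe the choice of the cells. Over all alveolar macrophages, Il1a had a UMI in 62.0%, 78.8%, 64.2% and 60.2%, highest in GAL replicate 2. Since GAL and WT each held a high and a low library, none of these genes separated the groups.

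**Figure D4:**
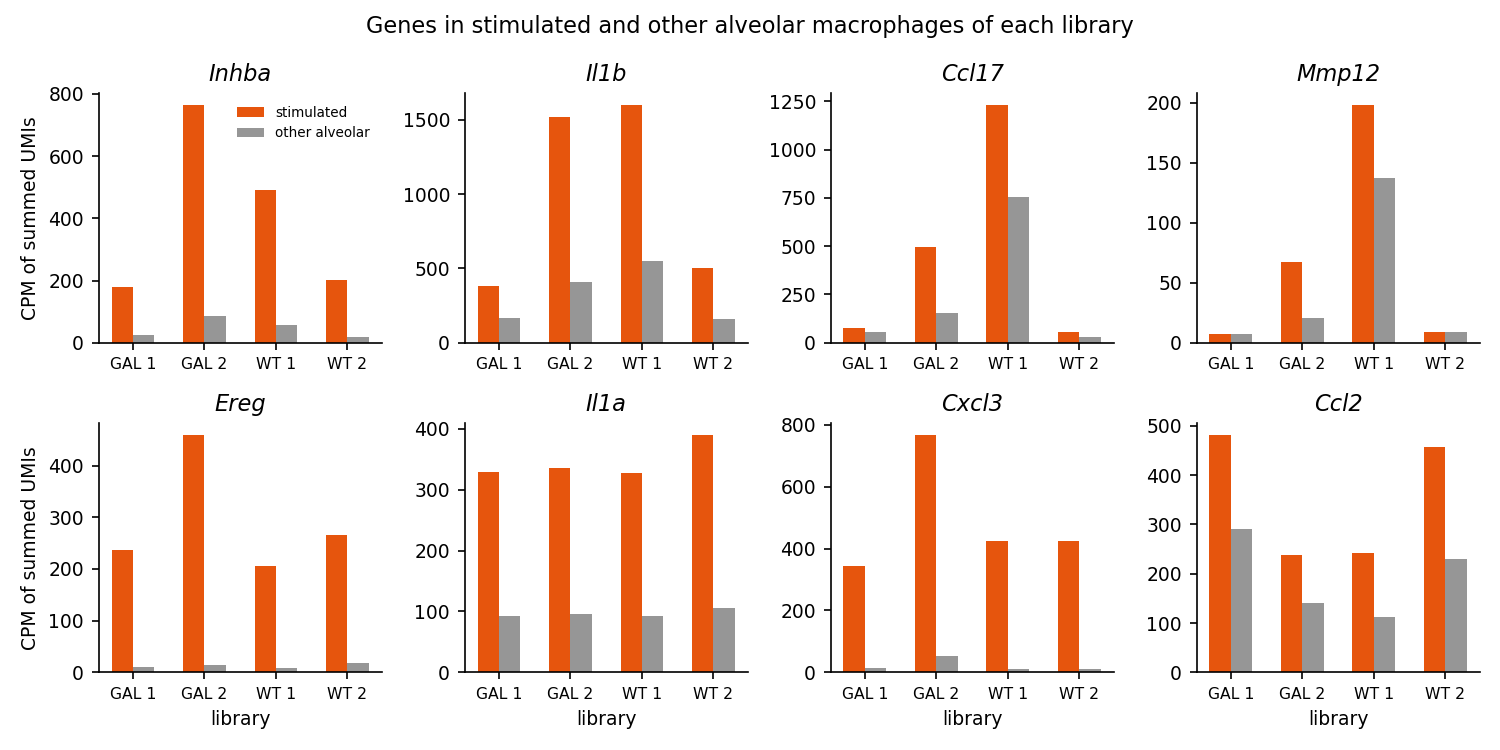
CPM of summed UMIs (bars, from 0) of 8 genes in stimulated and other alveolar macrophages of each library. Inhba, Il1b, Ccl17 and Mmp12 are high in GAL replicate 2 and WT replicate 1, Ccl2 in the other libraries, and Il1a is level, from 328 to 390.0 CPM in stimulated cells. Inhba, Ereg, Il1a and Cxcl3 are genes of the rule, so their values describe the choice of the cells.

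GAL was then compared with WT within the members, on UMIs summed per library and by edgeR's quasi-likelihood test with Benjamini-Hochberg adjustment. No gene of 11487 was called at an adjusted p under 0.05 (0%), with a smallest adjusted p of 0.992. At an unadjusted p under 0.05 there were 469 genes, 328 higher and 141 lower in GAL, and DESeq2 called 6 of 9655 (0.0621%). Both GAL libraries were above both WT libraries for 1931 genes (16.8%) and below for 1852 (16.1%). Galt, the edited gene, encodes galactose-1-phosphate uridylyltransferase of the Leloir pathway. It stood at 13.2, 9.95, 13.7 and 11.9 CPM in members, and its log2 fold change of -0.12 ± 0.21 (SE) was not called (edgeR adjusted p = 0.997). Its RNA level does not check an edit whose nature is not stated.

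The genes given next were those of smallest p at 20 CPM or more and those called by DESeq2, in CPM after TMM scaling, and edgeR called none (adjusted p = 0.992 for each gene of this and the next paragraph). Larger fold changes stood elsewhere, as for the 4 erythroid genes tested, with a median of -4.56 and the erythroid sums given above. mt-Nd3, a mitochondrial transcript for a subunit of complex I, was at 245 and 240.2 CPM in GAL against 104 and 51.5 CPM in WT, a log2 fold change of 1.64 ± 0.32 (adjusted p = 0.000218 by DESeq2). Pdgfb, which encodes a growth factor for fibroblasts and pericytes, was at 26.3 and 30.8 CPM in GAL against 10.2 and 9.43 CPM in WT, 1.55 ± 0.17 (adjusted p = 0.0173 by DESeq2). In other alveolar macrophages Pdgfb was at 16.7, 20.3, 8.31 and 5.87 CPM and mt-Nd3 at 258, 207, 114 and 51.6 CPM, so neither order belonged to stimulated cells alone. The heat shock gene Hspa1a was at 63.8 and 80.5 CPM in GAL against 35.7 and 28.1 CPM in WT, 1.17 ± 0.19 (adjusted p = 0.0227 by DESeq2). Cd69, an early activation receptor, was at 42.4 and 43.6 CPM in GAL against 22.1 and 23.8 CPM in WT, 0.91 ± 0.14. Fmo2 and Inmt, called by DESeq2 (adjusted p = 0.0227 and 0.0364), were at 74.9 and 23.7 CPM in GAL against 13.8 and 11.9 CPM in WT and at 136 and 58.4 CPM in GAL against 40.2 and 25.3 CPM in WT, highest in GAL replicate 1 as were the summed fibroblast markers given above, whose part in them was not tested. Gm15726, also called by DESeq2, was at 5.57 and 20.8 CPM in GAL against 2.20 and 0.927 CPM in WT.

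Lower in GAL were Casp6, an effector caspase, at 14.1 and 15.1 CPM in GAL against 26.4 and 24.7 CPM in WT (-0.80 ± 0.16), and Crem, a cAMP-responsive regulator, at 44.5 and 37.1 CPM in GAL against 68.3 and 60.9 CPM in WT (-0.67 ± 0.15). Tlr8, an endosomal RNA sensor, was at 37.3 and 34.2 CPM in GAL against 54.0 and 51.8 CPM in WT (-0.57 ± 0.13), and the adaptor gene Scimp at 69.1 and 59.2 CPM in GAL against 101 and 92.7 CPM in WT (-0.60 ± 0.14). Lsmem1 and Nfia completed the higher genes named by rule (log2 fold changes of 1.31 ± 0.25 and 0.71 ± 0.15), and Lepr, the leptin receptor gene, the lower ones (-0.55 ± 0.14). For these genes the libraries did not overlap between groups, as for 32.9% of all genes tested.

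**Figure D5:**
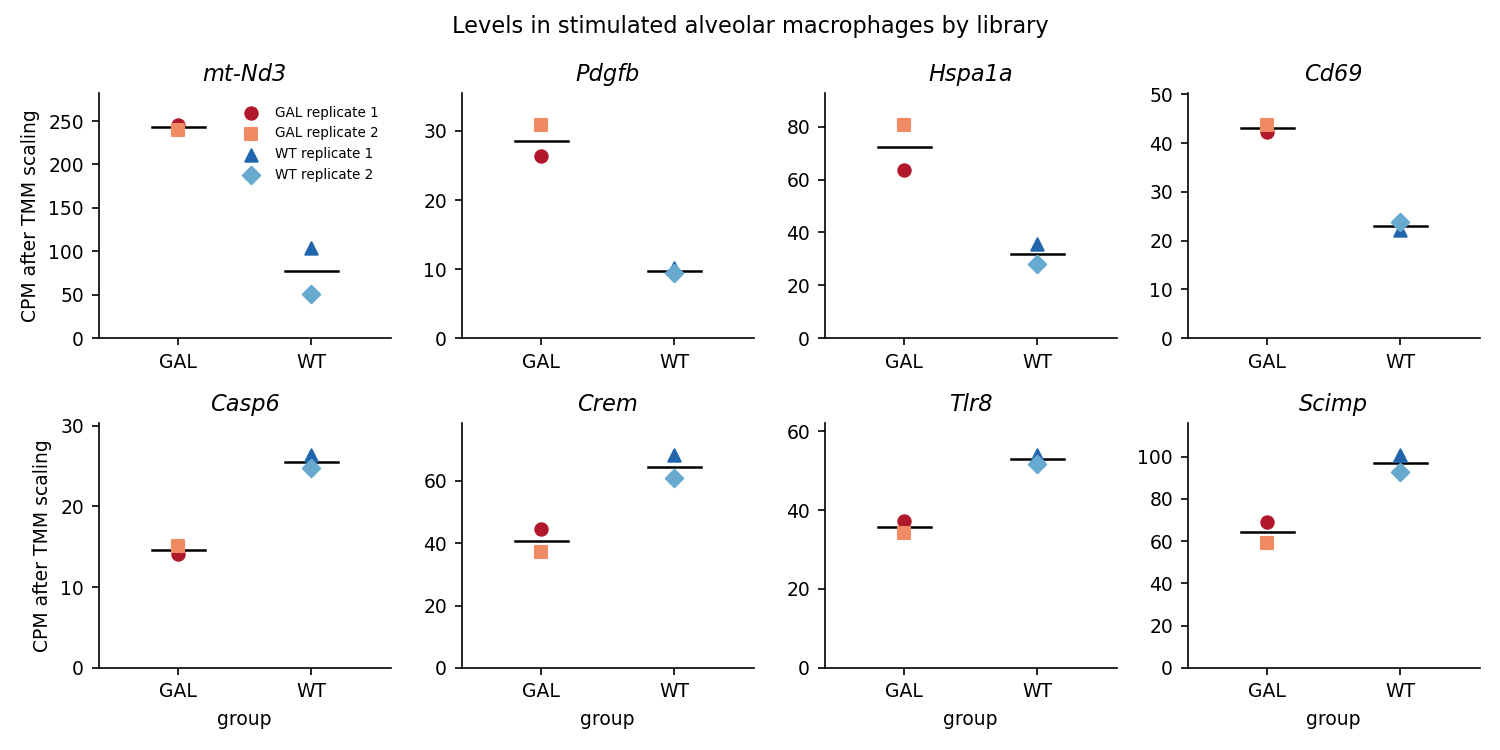
CPM after TMM scaling (y, from 0) in stimulated alveolar macrophages of GAL and WT libraries (points), with the group mean (bar), for 4 genes higher and 4 lower in GAL. The groups do not overlap for any of the 8, and none was called by edgeR (adjusted p = 0.992).

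By list, edgeR called no inflammatory cytokine, chemokine, growth factor, NF-kB or cholesterol synthesis gene between GAL and WT. Of 16 inflammatory cytokine genes tested, 14 had a positive log2 fold change (median 0.39), but 2 of 16 had libraries that did not overlap, both higher in GAL, against 16.8% of all genes. Tnf was at 968 and 1011 CPM in GAL against 550.5 and 991 CPM in WT, with WT replicate 1 lowest and the others close together. Il6 was at 68.3 and 226 CPM in GAL against 98.7 and 43.7 CPM in WT and Ptgs2 at 18.6 and 85.3 CPM in GAL against 33.0 and 14.2 CPM in WT, both highest in GAL replicate 2. Of 18 chemokines, 11 were positive (median 0.11), and Cxcl1 was at 1229 and 1857 CPM in GAL against 1112 and 988 CPM in WT (0.56 ± 0.24). Areg was at 267 and 636 CPM in GAL against 384 and 180.5 CPM in WT. The cholesterol synthesis list, high in members, had a median of -0.19 with 7 of 17 positive. Of 23 NF-kB genes, 17 were positive (median 0.19). Both GAL libraries were above both WT libraries for 5 of them and below for 1, against 16.8% and 16.1% of all genes.

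Immediate early genes were positive for 23 of 25 tested (median 0.32 against 0.01 over all genes), and 12 had both GAL libraries above both WT libraries. Over all genes tested, 50.8% were positive, 16.8% had both GAL libraries above both WT libraries and 16.1% below, and each list here is to be read beside these shares. Fos was at 1360.3 and 1205 CPM in GAL against 974 and 802 CPM in WT (0.53 ± 0.19), and Klf2 at 105 and 134 CPM in GAL against 81.5 and 75.1 CPM in WT (0.62 ± 0.16). All 13 mitochondrial DNA transcripts were positive (median 0.39, 9 with both GAL libraries above both WT libraries), with mt-Co3 at 3009 and 3944 CPM in GAL against 2491 and 1825 CPM in WT. The median mitochondrial share of member UMIs was 2.57%, 2.87%, 2.33% and 1.95%, higher in both GAL libraries, and the part of cell quality in these values was not tested. All 7 MHC class II genes were negative, with a median of -0.22 and 1 of 7 with both GAL libraries below both WT libraries, and H2-Aa was at 734 and 1389.7 CPM in GAL against 1590.5 and 1031 CPM in WT. Glucocorticoid targets were positive for 9 of 11, with Fkbp5 at 78.4 and 49.2 CPM in GAL against 26.7 and 31.2 CPM in WT (1.13 ± 0.24). Heat shock genes, among them Hspa1a, were positive for 5 of 12 (median -0.14). Of these 12, 4 had both GAL libraries above both WT libraries and 5 below. The Leloir and galactose list had 6 of 13 positive, with Galk1, galactokinase, at 12.8 and 12.0 CPM in GAL against 11.4 and 9.43 CPM in WT. Each list above had 0 genes called by edgeR.

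Single libraries decided which genes passed when 1 was left out and the lone library of its group was assumed to vary like the other group. Without GAL replicate 2, 17 genes were called, all higher in GAL, among them, with its log2 fold change, Sparc (2.06), Mfap4 (2.41), Fmo2 (2.53) and Scgb1a1 (1.61). Sparc and Mfap4 are known from fibroblasts, and Scgb1a1 from club cells of the airway. Without WT replicate 1, 6 were called, among them 4 haemoglobin genes lower in GAL, such as Hbb-bs (-5.39), and mt-Nd3 (2.24). Without GAL replicate 1, 3 were called (Gm15726, Hspa1b and Zc3h12c), and without WT replicate 2 none. Over all libraries together, fibroblast and endothelial markers were positive for 6 of 6 each and alveolar type 1 markers for 5 of 5. Alveolar type 2 markers were positive for 4 of 6 and erythroid markers for 0 of 4. The part of RNA from such cells in these calls was not tested.

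Whether the GAL difference itself differed between stimulated and other alveolar macrophages was tested as an interaction over 8 sums with the library as block. By edgeR's quasi-likelihood test, 5 of 11903 genes (0.042%) were called, all with a more negative GAL difference in stimulated cells, and DESeq2 called 3 of 19843 (0.0151%). Cxcl3 is one of them and was used to choose the cells, so its value describes the choice. The neutrophil genes S100a8, S100a9 and Retnlg and the interferon-induced chemokine Cxcl9 are the others. Of all these, Retnlg had the largest difference, -3.37 ± 0.33 (SE, adjusted p = 0.00148). S100a8 was at 99.98, 450.1, 199.5 and 193 CPM in stimulated and 343, 687, 143 and 145 CPM in other alveolar macrophages. The 8 neutrophil markers, none at 0, summed to 257, 759, 421 and 431 CPM in stimulated and 745, 1239.8, 295 and 333 CPM in other cells, so the other cells of both GAL libraries carried the most. Without the cells of the highest doublet scores, the difference was 0.15 for S100a8, 0.18 for S100a9 and -0.51 for Retnlg, none called (edgeR adjusted p = 1.00 each). With at least 3 stimulus genes required, Cxcl9 was still called, and the others were not, at -1.13 for Retnlg, -0.96 for S100a8, -1.39 for S100a9 and -0.38 for Cxcl3 (edgeR adjusted p = 0.322, 0.216, 0.173 and 0.0694). DESeq2 called Retnlg, S100a9 and Cxcl3, and not S100a8 or Cxcl9 (adjusted p = 1.00 each). Other alveolar macrophages of GAL replicate 2 numbered 196.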

How the data were processed

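Single-cell RNA of whole mouse lung, digested with collagenase and DNase, was read with a droplet kit (SeekOne, per the labels' protocols) in 2 GAL and 2 WT libraries. The authors deposited raw UMI counts per gene and barcode for each library, 32285 genes. Per the submitters' processing notes, fastp, STAR and Seurat were used, with GRCm38 (mm10). Versions, the cell caller and any doublet removal are not given in the sources used here.

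Cells with at least 300 genes and at most 20% mitochondrial UMIs were kept, and members were chosen as the report states. The members and gene lists were chosen with earlier results of these data known. For comparison, interstitial macrophages had at least 3 of C1qa, C1qb, C1qc, Cx3cr1, Ms4a7 and Folr2, and neutrophils at least 3 of S100a8, S100a9, Retnlg, Csf3r and Cxcr2, both with under 2 of the 8 alveolar macrophage genes. B cells had UMIs of Cd79a, Cd79b and Ms4a1 and none of Cd3e, Cdh5 and Siglecf. Doublets were not removed beyond the 3 genes of the rule that must be absent. Scrublet (in scanpy 1.11.5) gave the scores for the alternative without the highest-scoring cells, 0.8% per 1000 cells. Its own threshold marked 0.00823% of cells in GAL replicate 1, so it was not used.

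The counts of members, and of other alveolar macrophages, were summed per library, since cells are not replicates. GAL was tested against WT with edgeR 4.0.16 (R 4.3.3: filterByExpr, TMM scaling, glmQLFit, glmQLFTest, Benjamini-Hochberg adjustment over all genes tested, threshold 0.05), and the interaction on 8 sums with the library as block. DESeq2 1.42.0 was an alternative. Scripts were tested on simulated data. Shares were compared by exact permutation over libraries (SciPy 1.17.1). Member sums held about 4453190 to 10519200 UMIs.

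Named genes were the rule genes and Galt, the 15 highest and 15 lowest ratios on 1 side in all 4 libraries at 20 CPM or more, the 5 smallest p in each direction for GAL against WT where none was called, all tested cytokine, chemokine, growth factor and activin genes, up to 4 genes of each other list, and the called interaction genes. Chil3, Fmo2, Inmt, Gm15726, the genes called with a library left out and the examples of the other lists for GAL against WT were chosen after their values were seen. The sterol export and lipoprotein genes were likewise put together after their values were seen. Marker sums of the other cell types not printed in the report lay in members between 10.5 to 65.3 CPM (NK), 36.1 to 65.1 CPM (endothelial), 55.0 to 138 CPM (alveolar type 1), 100.5 to 325 CPM (airway), 42.9 to 59.2 CPM (nonclassical monocyte) and 0.665 to 2.02 CPM (basophil or mast, with Mcpt8, Cpa3, Ms4a2 and Fcer1a at 0).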

Additional observations from a re-analysis of the deposited data

Results flagged for a closer look

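Between stimulated and other alveolar macrophages, the GAL minus WT difference itself differed for 5 genes by the interaction test (edgeR's quasi-likelihood test, 8 sums, library as block). Retnlg had a difference of -3.37 ± 0.33 (SE, log2, edgeR adjusted p = 0.00148). Cxcl9 had a difference of -2.52 ± 0.29 (SE, log2, edgeR adjusted p = 0.00442). S100a8 had a difference of -1.57 ± 0.24 (SE, log2, edgeR adjusted p = 0.0379). S100a9 had a difference of -2.01 ± 0.29 (SE, log2, edgeR adjusted p = 0.0379). Cxcl3 had a difference of -1.05 ± 0.16 (SE, log2, edgeR adjusted p = 0.0379). In stimulated cells Retnlg, a neutrophil resistin-like gene, was at 5.14, 29.3, 22.3 and 21.6 CPM against 42.0, 87.7, 10.7 and 6.10 CPM in other cells. Cxcl9 was at 13.1, 41.9, 69.5 and 5.41 CPM against 25.1, 111, 23.8 and 5.64 CPM, so other cells of both GAL libraries were above their stimulated cells, WT replicate 2 was level and WT replicate 1 had the reverse order. Without WT replicate 1, the difference for Cxcl9 was -1.19 and not called (edgeR adjusted p = 0.728, where the alternatives ran up to 1.00). S100a9 was at 46.5, 256, 106 and 121 CPM against 220.0, 438, 65.0 and 80.7 CPM. Cxcl3 was at 326, 836, 427 and 407 CPM against 14.7, 54.6, 10.8 and 10.9 CPM, and as a gene of the rule it describes how cells were chosen.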

How the results depend on the processing

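The count of genes called between GAL and WT, 0 with edgeR, was 213 with no expression filter, 6 with DESeq2, and 0 to 17 with 1 library left out. The interaction, with 5 calls, gave 43 with no filter, 3 with DESeq2, 16 for cells with at least 3 stimulus genes (where 4 of the 5 genes lost their call), 9 without the highest doublet scores, and 18 to 73 with 1 library left out. Without the highest doublet scores S100a8 (0.149) and S100a9 (0.184) changed sign. Calls were also not all negative in other settings. Hspa1a was called with a positive difference of 0.79 with at least 3 stimulus genes and 1.16 without the highest doublet scores. With at least 5 of 8 alveolar macrophage genes required, it was called at 0.98. The causes were not tested. The GAL minus WT difference in the stimulated share ran from -5.59 to 37.3 percentage points with 1 library left out and from -4.07 to 32.6 after thinning, negative only without GAL replicate 2. Among log2 ratio medians, inflammatory cytokines gave 1.33 without the highest doublet scores, 1.54 with 1 CPM added, and 1.16 to 1.31 with 1 library left out. Chemokines gave 0.71 with at least 3 stimulus genes and 0.74 thinned, NF-kB genes 0.53 thinned, immediate early genes 0.39 thinned, and all genes -0.0765 with at least 3 stimulus genes and -0.0881 thinned. With 1 library left out, the chemokine median ran from 0.84 to 0.94 and that of cholesterol synthesis from 0.61 to 0.76. Of the values over all settings for summary results, 84 stayed near the reported value or, for the share, kept its sign, 22 moved and 2 reversed. The 84 thus include the share difference of 37.3 percentage points without GAL replicate 1. Thinning removed the depth gap between members and other cells but left few cells with all 4 genes, and 2 libraries a group cannot reach p = 0.05 in an exact test. The share thinned to 5000 UMIs was added after seeing the data. No paired analysis was possible because the labels number no replicates and name no animal, day or batch that libraries of both groups share.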
